A study of Mus musculus with 1298 samples.

Results

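Bulk RNA-seq libraries of Pdgfra+ cells of the mouse *Pax7* lineage that had been grown in DMEM were compared with libraries of Pdgfra+ cells taken straight from the sorter. The rule took every bulk library labelled as a Thy1 sort in DMEM (6 libraries) and every uncultured one labelled as a Thy1 sort (4 libraries), with both Thy1 sorts together, which gave 10 of the 18 bulk libraries and 10 of the 1298 samples of the series. All cells came from Pax7CreER embryos carrying an R26 stop-EYFP reporter, whose mothers received tamoxifen at 75 µg per g body weight at E9.5, so that cells with active *Pax7* at that time and their progeny were labelled with YFP. Limbs, viscera and heads were removed, embryos were pooled and digested with collagenase and dispase, and YFP+ cells were sorted for Pdgfra and then for presence or absence of Thy1. The DMEM libraries are labelled E14.5 and came from triplicate wells of sorted cells grown with fetal bovine serum on gelatin-coated plates, and the fresh libraries are labelled E16.5 and are technical duplicates. The stage was taken from the labels, while the text of the study puts part of the fresh bulk cells at an earlier stage. By the labels, culture and embryonic stage cannot be told apart in the bulk libraries. The p-values measure the spread among all libraries of a group. This holds the difference between the Thy1 sorts as well as that between wells or duplicates of pooled cells, but not that between litters.

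The names of the deposited count columns hold the medium, Thy1 and a replicate number, but not the sign of the sort. The columns of each medium fall into 2 sets by name, called a and b here. The names do not tell which set of one medium matches which set of the other. By the *Thy1* levels given below, fresh set a lay above fresh set b, and DMEM set b above DMEM set a. Equal letters therefore need not mean the same sort. A library is named by its number and set, such as DMEM 3b. Because the 6 DMEM libraries differed by set for several genes, sets are given separately for some of them. Elsewhere a range, median or fold change covers both sets, also where they did not overlap, as for *Fbln5*, *Timp3*, *Aldoa* and *Itih5*.

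Fibroblasts placed on rigid, serum-fed plastic are known to assemble actin stress fibres, and monomeric actin that is used up in this process frees a coactivator of serum response factor (SRF), which binds the CArG box in the promoters of many smooth muscle and cytoskeletal genes. Immediate early genes, such as those of the Fos and Egr families, are transcribed within minutes of a stimulus without new protein synthesis, and their RNAs decay quickly. In the embryonic trunk, Pdgfra marks mesenchyme that gives rise to dermis, brown fat and the connective tissue around muscle.

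Of 15358 genes tested, 7001 passed an edgeR quasi-likelihood test at an adjusted p under 0.05 with a fold of at least 2 (called genes), and "rose" and "fell" are used for called genes only. With TMM scaling, which sets the bulk of the genes equal between libraries, 2891 genes were higher in DMEM (18.8% of those tested) and 4110 were lower (26.8%). With scaling to total counts alone, 620 were higher and 9795 lower, since the median gene then lay at a log2 fold change of -1.52 against -0.12 with TMM, a shift of -1.40. All 4110 genes called lower with TMM were also called lower with total counts, whereas 620 (4.04% of those tested) were higher under both scalings, and 883 genes called higher with TMM had a negative log2 fold change with total counts. The 6 DMEM and 4 fresh libraries did not overlap for 3419 genes with DMEM on the higher side (22.3%) and for 4335 with DMEM on the lower side (28.2%). Values below are CPM, counts per library size scaled with the TMM factors (normalised CPM), log2 fold changes are DMEM over fresh with their standard error (SE), and for gene groups the number higher under both scalings is given beside the number called. Counts of called genes in every gene group are to be read beside the 18.8% higher, 26.8% lower and 4.04% higher under both scalings of all genes. In bulk samples, fewer cells of a type and less RNA per cell cannot be told apart.

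The shift between scalings went with the makeup of the libraries. The 50 most abundant genes took 35.9 to 40.4% of the counts in DMEM (mean 38.3% ± 1.58 SD, n = 6) and 20.1 to 22.7% in fresh libraries (mean 21.5% ± 1.14 SD, n = 4). At an equal depth of 17320736 counts, 16949 to 17437 genes were detected in DMEM libraries and 19746 to 20414 in fresh ones. Neither measure overlapped between the groups (exact two-sided permutation test, p = 0.00952 each, the smallest p that 6 against 4 libraries allow). Totals lay between 17320736 and 35332908 counts. The measured direction also followed gene length: of the shortest of 5 equal groups of genes (81 to 2336 exon bases) 38.9% were called higher and 18.3% lower, and of the longest group (7558 to 123179 exon bases) 6.46% were higher and 39.2% lower. The part of length in the results below was not tested.

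**Figure D1:**
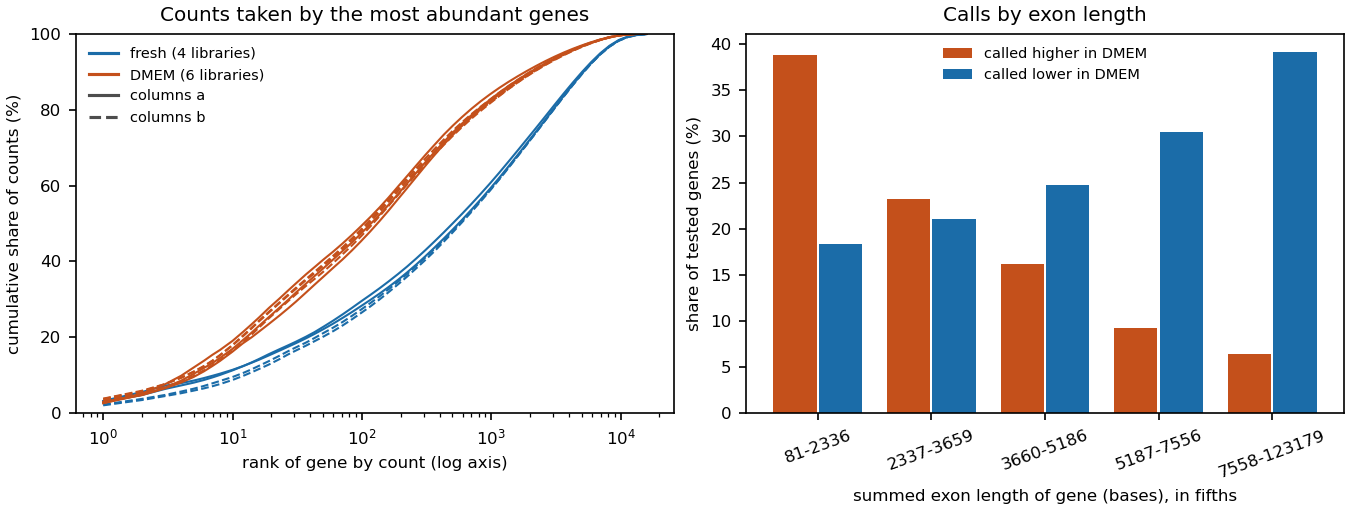
Left, cumulative share of counts (%) against gene rank (log axis) for the 4 fresh (blue) and 6 DMEM (orange) libraries, with columns of set a as solid and of set b as dashed lines. Past the few most abundant genes the DMEM lines run above the fresh ones, with 35.9 to 40.4% against 20.1 to 22.7% of counts in the 50 most abundant genes. Right, share of tested genes called higher or lower in DMEM in each of 5 groups by summed exon length, where the share called higher drops from 38.9% in the shortest to 6.46% in the longest.

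Of the gene lists tested, that of the actin cytoskeleton had the highest median fold change. Of its 28 genes for actins, actin-binding and contractile proteins, 24 rose in DMEM with TMM, where 18.8% of all genes did, although *Zyx*, *Vcl* and *Flna* among them turned to log2 fold changes of -0.24, -0.18 and -0.086 with total counts. Of the 28, 17 were higher under both scalings, where 4.04% of all genes were. The list median was a log2 fold change of 2.85 with TMM and 1.46 with total counts, against -0.12 and -1.52 for all genes tested. Counts of the list summed to 10508 to 13965 normalised CPM in fresh and to 97469 to 149555 in DMEM libraries.

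*Acta2*, which encodes smooth muscle α-actin and marks myofibroblasts (chr19:34241090-34255590, minus strand, GRCm38), lay at 25.6, 96.3, 36.04 and 35.8 normalised CPM in fresh 1a, 2a, 1b and 2b. In DMEM it lay between 16378 and 29652 with a median of 23891. Every DMEM library lay far above every fresh library, by 482.5-fold in the fit (log2 fold change 8.91 ± 0.55 SE, edgeR adjusted p = 4.29e-07). *Actg2*, the enteric smooth muscle γ-actin, went from 2.61, 8.85, 4.18 and 1.57 to between 1649 and 2361, with a median of 2104 (log2 fold change 8.91 ± 0.57 SE, edgeR adjusted p = 5.11e-07). *Tagln*, encoding the actin-binding protein transgelin, lay at 8.84, 11.7, 9.20 and 8.45 in fresh libraries and between 1113 and 1778 in DMEM, with a median of 1603 (log2 fold change 7.29 ± 0.26 SE, edgeR adjusted p = 2.64e-08). The pairs of ranges are far apart for all of these genes, and the 4 fresh libraries of *Tagln* differed less among themselves than those of the actins. *Acta1*, the skeletal muscle α-actin, rose as well, from 4.07, 12.1, 26.6 and 29.4 to a median of 1248 (log2 fold change 6.10 ± 0.61 SE, edgeR adjusted p = 8.79e-06). Actin genes share long stretches of near-identical sequence, and since the counting of the bulk reads is not given in the sources used here, the split of reads among *Acta1*, *Acta2* and *Actg2* is uncertain.

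The genes of the contractile apparatus that are not actins moved the same way. *Cnn1*, encoding calponin, a regulator of smooth muscle contraction, lay at 1.94, 2.49, 2.14 and 3.38 in the fresh libraries and at 117.7 to 184.3 in DMEM, with a median of 158.4 (log2 fold change 5.96 ± 0.23 SE, edgeR adjusted p = 3.39e-08). *Myl9*, the regulatory light chain of smooth muscle and non-muscle myosin, lay at 26.3, 45.7, 59.9 and 57.1 and at 1303 to 2263, with a median of 2009 (log2 fold change 5.33 ± 0.31 SE, edgeR adjusted p = 3.31e-07). Among called genes with a mean of at least 32 CPM and no overlap, *Acta2*, *Actg2*, *Tagln*, *Acta1*, *Cnn1* and *Myl9* were all among the 15 largest increases. The 3 members that were not called were *Tagln2*, *Tln1* and *Mrtfa*, named here after their values were seen. *Mrtfa*, the coactivator of SRF, had a log2 fold change of 0.75 with TMM and -0.65 with total counts. *Srf* was the only member that fell. It lay at 7.79, 8.68, 5.85 and 4.19 in fresh and at 0.340 to 1.43 in DMEM libraries, with a median of 0.734 (log2 fold change -2.98 ± 0.37 SE, edgeR adjusted p = 4.46e-05), so the transcript of the factor moved against most of the list.

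The RefSeq promoters (GRCm38.p6, 250 bases before to 50 after each start) were searched on both strands for the CArG box. It occurred in 6 of the 25 contractile genes with a promoter in the set searched, or 24%, against 1.81% of 27025 genes in all. The 6 were *Actg1*, *Cnn2*, *Myl6*, *Myl9*, *Srf* and *Vcl*. The promoters of *Acta2* and *Cnn1* (log2 fold changes 8.91 and 5.96) held no match in this window, while that of *Myl9* (5.33) did. *Actg2*, *Tagln* and *Actb* were not among the 25. Whether the box has a part in the increases was not tested. Among the immediate early and heat shock genes described below it occurred in 2 of 23 (8.70%), *Egr2* and *Zfp36*. For comparison, the letters GGAATG, the core bound by TEAD factors, occurred in 9 of 25 (36%) against 16.6% of all genes, and the AP-1 letters TGANTCA in 3 of 25 (12%) against 8.97%. The promoters of *Myl9*, *Cnn2* and *Srf* are shown because the first 2 genes rose and *Srf* fell with the same element before its start, and that of *Zfp36* because this early response gene, which fell, also holds it. Each is given as the 250 bases before the start, 5′ to 3′ on the strand of the gene, with the CArG box in capitals.
Myl9 (chr2:156775214-156775463, plus strand): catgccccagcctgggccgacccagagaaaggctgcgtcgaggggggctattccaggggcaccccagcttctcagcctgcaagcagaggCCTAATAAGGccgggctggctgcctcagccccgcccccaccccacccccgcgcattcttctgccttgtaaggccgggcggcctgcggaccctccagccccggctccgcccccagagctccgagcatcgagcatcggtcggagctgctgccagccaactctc
Cnn2 (chr10:79988350-79988599, plus strand): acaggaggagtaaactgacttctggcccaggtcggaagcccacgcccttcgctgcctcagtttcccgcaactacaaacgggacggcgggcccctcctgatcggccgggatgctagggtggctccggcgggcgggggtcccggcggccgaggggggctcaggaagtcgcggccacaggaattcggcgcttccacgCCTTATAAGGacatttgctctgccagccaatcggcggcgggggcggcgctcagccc
Srf (chr17:46556163-46556412, minus strand): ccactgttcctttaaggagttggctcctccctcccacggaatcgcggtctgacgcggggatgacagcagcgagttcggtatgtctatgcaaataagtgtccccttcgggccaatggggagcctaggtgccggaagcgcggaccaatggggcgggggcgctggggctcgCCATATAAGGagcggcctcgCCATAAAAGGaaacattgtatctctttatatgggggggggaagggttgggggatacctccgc
Zfp36 (chr7:28379229-28379478, minus strand): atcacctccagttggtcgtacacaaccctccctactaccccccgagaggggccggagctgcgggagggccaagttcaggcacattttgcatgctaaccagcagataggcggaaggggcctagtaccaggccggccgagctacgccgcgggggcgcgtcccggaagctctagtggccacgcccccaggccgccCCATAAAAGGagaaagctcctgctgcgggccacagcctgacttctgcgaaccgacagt
The box began 56 bases before the start in *Cnn2*, 58 in *Zfp36*, 82 and 62 in *Srf*, and farther away in *Myl9*. A match is a description of these letters and not of binding.

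**Figure D2:**
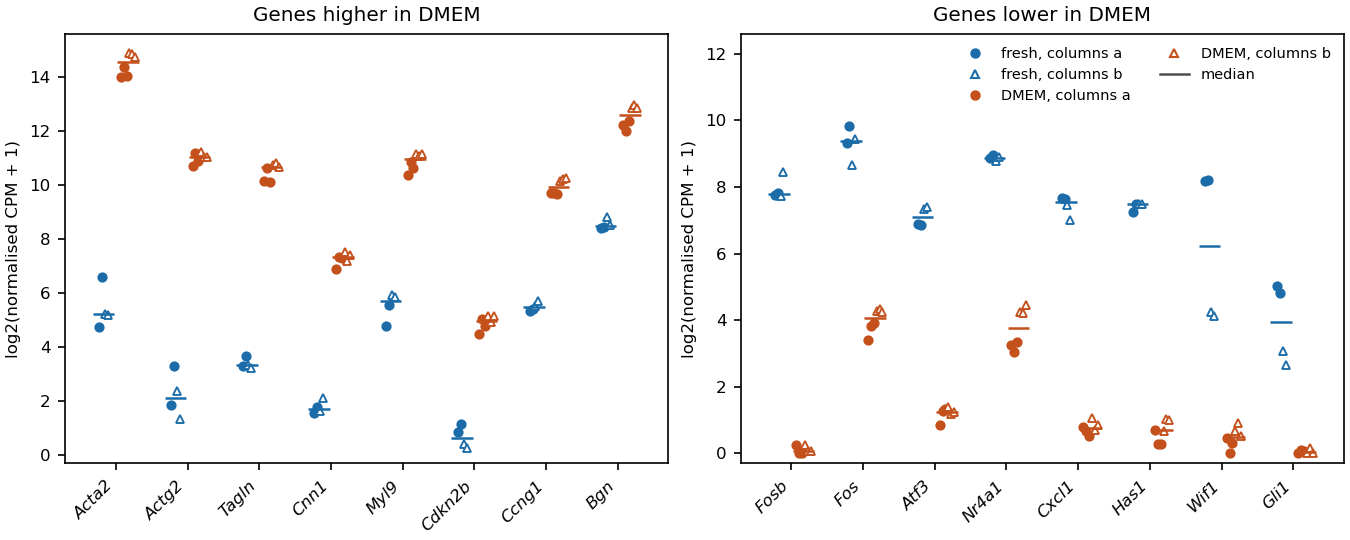
Log2(normalised CPM + 1) of 8 genes higher (left) and 8 genes lower (right) in DMEM, with each point a library (circles set a, triangles set b), fresh in blue and DMEM in orange, and bars at group medians. No DMEM library overlaps a fresh library in any of these genes, and the fresh sets a and b stand apart for *Wif1* and *Gli1*.

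Immediate early and heat shock genes were lower in DMEM. Of 28 genes, 27 fell and none rose, where 26.8% of all genes fell, and the 6 DMEM and 4 fresh libraries did not overlap for all 28, where 28.2% of all genes did so. The list median was -3.4 with TMM and -4.80 with total counts. The single member not called was the heat shock protein gene *Hsph1*, named after its value was seen, at a log2 fold change of -0.67. *Fosb*, encoding an AP-1 subunit (chr7:19302696-19310051, minus strand, GRCm38), lay at 215.4, 225.4, 210.04 and 346.4 normalised CPM in fresh libraries and between 0 and 0.204 in DMEM, with a median of 0.0590 and 8 counts over all 6 libraries (log2 fold change -11.53 ± 0.48 SE, edgeR adjusted p = 5.66e-08). *Fos*, another member of the same family, lay at 639.5, 911.7, 402.1 and 698.7 and at 9.64 to 19.4, with a median of 15.96 (log2 fold change -5.43 ± 0.27 SE, edgeR adjusted p = 1.16e-07). *Fosb* was thus close to absent in culture, while *Fos* remained measurable in every well.

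*Atf3*, a stress-induced factor of the ATF/CREB family, lay at 117.5, 113.98, 160.4 and 166.6 and at 0.814 to 1.63, with a median of 1.40 (log2 fold change -6.69 ± 0.21 SE, edgeR adjusted p = 1.63e-08). *Nr4a1*, an orphan nuclear receptor induced by many stimuli, lay at 467.6, 498.7, 439.7 and 475.7 and at 7.31 to 21.1, with a median of 13.4 (log2 fold change -5.11 ± 0.32 SE, edgeR adjusted p = 4.89e-07). *Egr3*, a zinc finger factor of the Egr family, went from 11.4, 14.49, 19.3 and 18.1 to a median of 0.358 (log2 fold change -5.41 ± 0.27 SE, edgeR adjusted p = 1.16e-07). The same family's *Egr1* lay at 680.8, 1019, 672.7 and 786.7 in fresh and 34.99 to 59.7 in DMEM libraries (log2 fold change -4.07 ± 0.20 SE, edgeR adjusted p = 9.9e-08). The decrease held in both DMEM sets against the 4 fresh libraries, with 27 of 28 called lower for set a alone and 27 of 28 for set b alone.

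Uncultured cells of both stages were available as Smart-seq2 single cells of the same lineage, which allow a look at stage without culture. Counts of cells with a *Pdgfra* count were summed to 1 value per stage (36.2% of the cells of E14.5 and 51.5% of those of E16.5), so no test was possible. *Fosb* lay at 302.2 CPM in the E14.5 cells and 457.7 in the E16.5 cells, *Fos* at 1579.6 and 3504, *Atf3* at 144.5 and 384.6, and *Nr4a1* at 466.9 and 987.1. These genes were therefore present in uncultured cells of the stage from which the cultures are labelled. Over the list the median log2 ratio of E14.5 to E16.5 was -1.18, and 18 of 27 members were at least 2-fold higher at E16.5, against a median of 0.35 over 10478 genes. The direction of the stage difference was thus the same as that of the bulk difference for this list. Single cells and fresh bulk cells both went through enzymatic digestion and sorting, whose part in these levels was not tested. For the contractile list the stage ratio had a median of -0.29, and *Acta2* lay at 66.9 and 88.6 CPM and *Tagln* at 10.2 and 21.9. Both values at E14.5 were below those at E16.5, the opposite of the bulk difference.

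**Figure D3:**
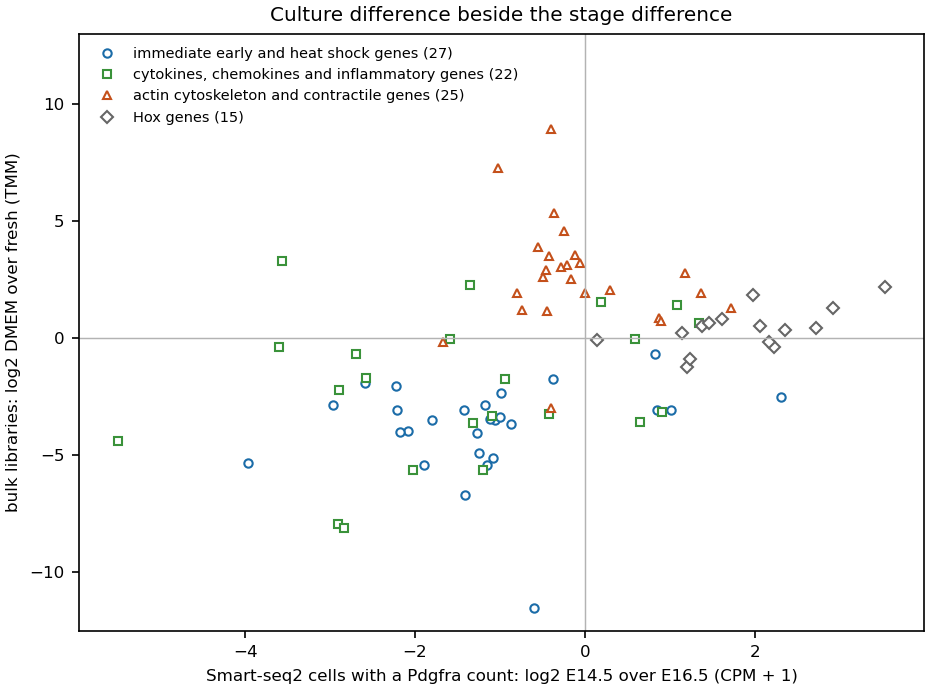
Each point is a gene with at least 10 CPM at a stage: the log2 ratio of uncultured Smart-seq2 cells at E14.5 to those at E16.5 (horizontal) and the log2 fold change of DMEM over fresh bulk libraries (vertical). The contractile genes (triangles, 25) lie mostly above 0 on the vertical axis with stage ratios around a median of -0.29, the immediate early genes (circles, 27) and cytokines (squares, 22) lie mostly below 0 with median stage ratios of -1.18 and -1.33, and the Hox genes (diamonds, 15) stand to the right with a median of 1.97.

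Cytokine, chemokine and inflammatory genes fell alongside the early genes. Of 32 tested, 19 fell and 5 rose, none of them under both scalings, with a median of -1.89 (TMM). *Cxcl1*, a neutrophil-attracting chemokine, lay at 203.4, 197.7, 175.4 and 128.3 in fresh and at 0.425 to 1.09 in DMEM libraries, with a median of 0.685 (log2 fold change -7.96 ± 0.25 SE, edgeR adjusted p = 1.63e-08). *Cxcl2*, a closely related chemokine, had no count in any DMEM library and lay at 31.7, 26.5, 3.18 and 1.78 in fresh ones, at least 533.9-fold lower against a floor of 3 counts over the 6 libraries. The interleukin gene *Il6* went from 16.53, 22.3, 20.01 and 26.1 to a median of 0.256 (log2 fold change -5.64 ± 0.68 SE, edgeR adjusted p = 3.34e-05). *Has1*, a hyaluronan synthase, lay at 150.3, 177.1, 179.7 and 177.5 and at 0.212 to 1.07 (log2 fold change -8.10 ± 0.39 SE, edgeR adjusted p = 9.43e-08). All 6 wells lay below every fresh library for these 4 genes, and fresh set a lay far above set b for *Cxcl2*. White blood cell markers moved with them, with summed levels of 15.1 to 29.3 in fresh and 2.32 to 5.94 in DMEM libraries, and their part in the decrease was not tested. The 5 that rose were *C3*, *Saa3*, *Spp1*, *Cx3cl1* and *Cxcl12*, the last named after its value was seen. *Saa3*, an acute phase protein gene, had a log2 fold change of 2.29 ± 0.25 SE with TMM and 0.89 with total counts. *C3*, encoding complement component 3, was raised in set a (70.7, 37.4 and 47.2) and not in set b (0.952, 1.07 and 2.16), with fresh libraries at 2.61, 0.918, 3.41 and 3.74, and leaving out any of 7 libraries (the 4 fresh libraries and those of DMEM set a) ended its call at log2 fold changes of 2.73 to 3.51. In the Smart-seq2 sums 14 of 22 members were at least 2-fold higher at E16.5, with *Cxcl1* at 26.9 and 208.8 CPM and *Has1* at 25.3 and 186.04, so stage and bulk differences pointed the same way here too.

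Interferon response genes stood on the other side. Of 21 tested, 15 rose and 1 fell, with 5 higher under both scalings and medians of 1.67 (TMM) and 0.27 (total counts). *B2m*, the constant subunit of MHC class I, lay at 187.1, 230.2, 350.1 and 344.9 and at 2557 to 4586, with a median of 3204 (log2 fold change 3.58 ± 0.28 SE, edgeR adjusted p = 1.62e-06). *Ifit1*, which binds foreign RNA caps, was low throughout at 0.293, 0.492, 0.367 and 1.73 in fresh libraries, and reached 2.00 to 16.7 in DMEM (log2 fold change 3.25 ± 0.74 SE, edgeR adjusted p = 0.00269). *Ifit3* and *Usp18*, an antiviral partner of *Ifit1* and a protease that removes ISG15, rose by 2.87 and 2.85 on the log2 scale. *Irf1*, an interferon-induced transcription factor, fell (log2 fold change -1.11 ± 0.15 SE, edgeR adjusted p = 8.14e-05, and -1.00 without fresh 2b, just short of the 2-fold limit).

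The matrix genes are read by class, against the 18.8% of all genes called higher and the 26.8% called lower. Of 21 collagen chains, 1 rose and 6 fell, with a median of -0.35 (TMM) and -1.77 (total counts), close to the medians of all genes. *Col8a1*, a short-chain collagen, was the one that rose (84.1, 92.2, 27.8 and 25.1 against a median of 368.9, log2 fold change 2.63 ± 0.40 SE, edgeR adjusted p = 0.000186). *Col14a1*, a collagen that decorates the surface of fibrils, fell from 142.3, 173.9, 530.7 and 561.9 to between 6.86 and 15.5 (log2 fold change -4.98 ± 0.45 SE, edgeR adjusted p = 3.96e-06). *Col26a1*, *Col18a1* and *Col23a1* fell by 4.53, 3.27 and 3.19 on the log2 scale, and none of these overlapped between the groups. The main fibrillar chain gene *Col1a1* was not called, at 13080.3, 10827, 7916 and 8390.2 in fresh and 11624 to 27831 in DMEM libraries, with a log2 fold change of 0.99 with TMM and -0.41 with total counts, and it passed the 2-fold limit with TMM when DMEM 1a, DMEM 2a, fresh 1a or fresh 2a was left out (1.03 to 1.14).

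Of 34 glycoproteins, proteoglycans and cross-linking enzymes of the matrix, 15 rose and 2 fell, with 5 higher under both scalings, and the median of 0.78 with TMM turned to -0.62 with total counts. *Bgn*, the proteoglycan biglycan, lay at 341.8, 343.9, 451.1 and 367.3 and at 4050.02 to 7849.99, with a median of 6253 (log2 fold change 4.02 ± 0.26 SE, edgeR adjusted p = 5.48e-07). *Fbln5*, an elastic fibre protein, went from 94.5, 100.02, 156.8 and 138.3 to a median of 1637 (log2 fold change 3.74 ± 0.43 SE, edgeR adjusted p = 2.14e-05), and its relative *Fbln2* from 347.4, 338.9, 538.4 and 535.7 to a median of 4972 (log2 fold change 3.4 ± 0.27 SE, edgeR adjusted p = 1.92e-06). *Lox*, encoding lysyl oxidase, which cross-links collagen and elastin, went from 699.2, 729.1, 853.7 and 716.7 to a median of 6384 (log2 fold change 3.19 ± 0.19 SE, edgeR adjusted p = 3.92e-07). These 4 did not overlap between the groups in any library. *Dpt*, dermatopontin, and *Mfap5*, a microfibril protein, fell by 1.45 and 1.2 on the log2 scale. These calls ended for *Dpt* without fresh 1a (-1.36) or 2a (-1.39) and for *Mfap5* without fresh 1b (-0.88). With DMEM set a alone *Dpt* was at -2.92, and with set b alone at -0.70, under the 2-fold limit. For *Mfap5* set a alone gave -0.82, under that limit, and set b alone -1.58. In the Smart-seq2 sums *Mfap5* lay at 50.7 CPM in E14.5 cells and 311.3 in E16.5 cells, and *Dpt* at 124.97 and 401.7.

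Of 25 matrix proteases and inhibitors, 7 rose (3 under both scalings) and 6 fell, beside 18.8% of all genes called higher and 26.8% called lower. The list medians were 0.063 (TMM) and -1.30 (total counts), near those of all genes. The inhibitors *Timp3*, *Serpinf1* and *Serpine2* rose by 3.59, 3.68 and 3.15, and *Timp3*, which binds metalloproteases in the matrix, went from 161.8, 176.2, 200.8 and 220.5 to between 1274 and 3267. *Plaur*, the receptor of urokinase, fell from 139.6, 110.4, 70.3 and 59.2 to a median of 8.52 (log2 fold change -3.49 ± 0.30 SE, edgeR adjusted p = 3.15e-06). The aggrecanase *Adamts5* rose with TMM by 2.24 and its relative *Adamts12* fell by 2.29.

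Of 19 integrin subunits, 12 fell and 2 rose, with none higher under both scalings and a median of -1.2 (TMM). The β1 subunit gene *Itgb1*, the common partner of many α chains, rose with TMM from 240.2, 197.4, 294.3 and 258.7 to a median of 852.9 (log2 fold change 1.72 ± 0.37 SE, edgeR adjusted p = 0.00168) and had a log2 fold change of 0.34 with total counts. The collagen receptor subunit *Itga11* rose with TMM by 1.48. The fibronectin receptor subunit *Itga4* fell (log2 fold change -2.55 ± 0.62 SE, edgeR adjusted p = 0.00397), with set a at 2.07, 0.226 and 1.06 and set b at 4.62, 4.05 and 4.45. *Itgb8*, a subunit of an activator of latent Tgf-β, fell by 2.89 with values of at most 5.53 in any library and with overlap between the groups.

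Of 23 tested targets of the coactivator Yap and its partner Tead, 6 rose (3 under both scalings) and 7 fell, beside 18.8% of all genes called higher and 26.8% called lower, with medians of 0.27 (TMM) and -1.12 (total counts). *Igfbp3*, a binding protein of Igf, went from 40.6, 39.1, 122.9 and 70.9 to a median of 521.1 (log2 fold change 3.13 ± 0.46 SE, edgeR adjusted p = 0.000146), and *F3*, tissue factor, from 31.5, 25.3, 118.4 and 103.98 to a median of 366.1 (log2 fold change 2.54 ± 0.52 SE, edgeR adjusted p = 0.00135). *Ankrd1* rose at a low level, from 0.251, 0.426, 0.530 and 0.288 to a median of 3.18 (log2 fold change 3.29 ± 0.51 SE, edgeR adjusted p = 0.000211). Log2 fold changes of the list ran from -2.60 to 3.29. *Tgfb2*, a Tgf-β ligand, fell by 1.53, and other members fell by more.

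Few DNA replication genes were called, while Cdk inhibitors and p53 targets mostly rose. Of 28 DNA replication genes, 1 rose and 2 fell, with a median of 0.065 (TMM) and -1.33 (total counts). The licensing factors *Cdt1* and *Cdc6* fell by 1.64 and 1.1 (*Cdc6* was at -0.81 and not called without fresh 1a), and the ribonucleotide reductase subunit *Rrm2* rose by 1.34 with TMM and lay at -0.058 with total counts. Of 27 mitosis genes, 8 rose with TMM and none under both scalings, and the median turned from 0.54 to -0.86 with total counts. *Plk1*, a mitotic kinase, went from 12.45, 17.8, 10.2 and 13.1 to between 62.7 and 78.7 (log2 fold change 2.35 ± 0.17 SE, edgeR adjusted p = 1.01e-06), and *Cdc20*, an activator of the anaphase promoting complex, from 33.2, 38.9, 29.3 and 33.96 to between 123.9 and 145.1 (log2 fold change 1.99 ± 0.12 SE, edgeR adjusted p = 4.73e-07). Both kept a positive log2 fold change with total counts (0.96 and 0.59).

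Of 19 Cdk inhibitors and p53 target genes, 11 rose (6 under both scalings) and 1 fell, with medians of 1.86 (TMM) and 0.47 (total counts). *Cdkn2b*, which encodes the Cdk4 and Cdk6 inhibitor p15, was nearly silent in fresh libraries at 0.815, 1.25, 0.347 and 0.209 and lay between 21.3 and 34.9 in DMEM, with a median of 30.5 (log2 fold change 5.52 ± 0.46 SE, edgeR adjusted p = 2.27e-06). In the uncultured Smart-seq2 sums it lay at 0 CPM at E14.5 and 0.869 at E16.5. *Ccng1*, a p53 target encoding cyclin G1, went from 38.95, 41.9, 45.1 and 50.6 to between 805.6 and 1219, with a median of 987.4 (log2 fold change 4.50 ± 0.21 SE, edgeR adjusted p = 8.09e-08). *Phlda3*, an inhibitor of Akt induced by p53, rose by 3.15, and the stress-induced ligand *Gdf15* by 3.70 from very low levels (0.104, 0.131, 0.388 and 0.183). The imprinted inhibitor *Cdkn1c* fell (log2 fold change -1.33 ± 0.32 SE, edgeR adjusted p = 0.00394), although fresh (99.4, 69.97, 215.6 and 244.2) and DMEM libraries (42.8 to 74.6) overlapped.

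Genes for ribosomes and the respiratory chain, whose transcripts are short, rose with TMM in nearly all members. Of 83 cytosolic ribosomal protein genes, 80 rose with TMM and 18 under both scalings, with medians of 2.07 and 0.66. Of 76 nuclear genes of the respiratory chain, 75 rose with TMM and 37 under both scalings, with medians of 2.45 and 1.02. Their median exon lengths were 1770 and 1718 bases, within the shortest of the 5 length groups, where the median gene lay at a log2 fold change of 0.69 and 38.9% were called higher. The 3 ribosomal genes not called were *Rpl12*, *Rpl39l* and *Rpl7l1*, and the respiratory one was *Atp5s*, all named after their values were seen. Ribosomal protein genes have many processed copies in the genome, so their counts are uncertain as single genes.

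*Rps2*, of the small ribosomal subunit, lay at 247.5, 145.3, 202.2 and 163.4 and at 771.2 to 3403 (log2 fold change 3.6 ± 0.43 SE, edgeR adjusted p = 3.02e-05), and *Rps27l*, a p53-inducible relative of a ribosomal protein gene, rose to between 743.5 and 1199 (log2 fold change 3.26 ± 0.19 SE, edgeR adjusted p = 3.36e-07). *Cox5a*, a subunit of cytochrome c oxidase, lay at 42.5, 47.2, 47.5 and 51.9 in fresh libraries, at 1435, 1015 and 904.9 in DMEM set a and at 219.1, 248.5 and 231.9 in set b (log2 fold change 3.84 ± 0.63 SE, edgeR adjusted p = 0.000291). The increase was thus larger in set a. Over the nuclear respiratory chain list, set a alone against the fresh libraries had a median of 3.12 with 75 of 76 called higher. Set b alone had a median of 1.33 with 51 of 76 called higher. *Cox6b1* and *Uqcr10*, of complexes IV and III, rose by 3.75 and 3.45. All 13 mitochondrially encoded genes rose, 10 of them under both scalings, with medians of 2.54 and 1.12. Their share of counts was 3.48 to 4.35% in fresh and 7.25 to 14.88% in DMEM libraries (exact permutation p = 0.00952). *mt-Co3*, a core subunit of cytochrome c oxidase, rose by 3.05 ± 0.32 SE.

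Of 27 glycolysis and hypoxia genes, 14 rose (6 under both scalings) and 4 fell, with medians of 1.67 (TMM) and 0.24 (total counts). Among those that rose were enzymes of glycolysis. *Eno1*, enolase, went from 228.1, 255.1, 225.4 and 227.5 to between 2716 and 5467 (log2 fold change 4.05 ± 0.26 SE, edgeR adjusted p = 5.04e-07), and *Pkm*, pyruvate kinase, from 311.6, 324.7, 243.6 and 227.1 to between 1851 and 2763 (log2 fold change 3.06 ± 0.20 SE, edgeR adjusted p = 5.88e-07). *Aldoa*, aldolase A, rose by 3.38. The 4 that fell were the hexokinase *Hk2*, the lactate exporter *Slc16a3*, the angiogenic ligand *Vegfa* and the stress-responsive *Ndrg1*. *Hk2* and *Vegfa* overlapped between the groups. *Ndrg1* went from 181.5, 213.5, 231.3 and 196.3 to between 18.7 and 26.96 (log2 fold change -3.17 ± 0.14 SE, edgeR adjusted p = 5.66e-08), and *Slc16a3* from 23.1, 27.5, 26.4 and 22.8 to a median of 5.04 (log2 fold change -2.08 ± 0.34 SE, edgeR adjusted p = 0.000263). Members of the same list thus moved in both directions, and set a alone gave 15 higher and 4 lower against 9 and 8 for set b alone.

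Of 23 cholesterol synthesis genes, 12 rose with TMM, 1 of them under both scalings, and none fell, with the median turning from 1.18 to -0.21 with total counts. *Fdft1*, squalene synthase, was the one, from 24.1, 38.02, 32.6 and 40.5 to between 132.8 and 265.8 (log2 fold change 2.56 ± 0.26 SE, edgeR adjusted p = 1.1e-05). *Lss*, *Fdps* and *Nsdhl*, further enzymes of the pathway, rose with TMM by 2.11, 2.09 and 1.94. Of 29 genes for endoplasmic reticulum chaperones, collagen-modifying enzymes and the unfolded protein response, 12 rose (3 under both scalings) and 4 fell, with the median turning from 0.60 to -0.79. The 3 were *Trib3*, *Chac1* and *Asns*, known targets of the factor ATF4 in amino acid shortage. *Asns*, asparagine synthetase, lay at 21.3, 19.2, 26.2 and 20.6 and at 109.8 to 282.3 (log2 fold change 3.16 ± 0.34 SE, edgeR adjusted p = 1.57e-05), and *Trib3*, a pseudokinase, at 1.21, 0.590, 2.98 and 2.62 and at 11.5 to 50.5 (log2 fold change 3.99 ± 0.61 SE, edgeR adjusted p = 0.000182). The collagen chaperone *Serpinh1* rose with TMM by 2.01, and *Dnajb9*, *Plod1* and *Creb3l1* fell by 1.79, 1.36 and 1.23.

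The labelled cell type was checked by its markers. *Pdgfra* was present in every library but lower in DMEM, at 270.7, 266.5, 152.97 and 191.004 in fresh 1a, 2a, 1b and 2b and 51.8 to 135.8 in DMEM, without overlap (log2 fold change -1.11 ± 0.27 SE, edgeR adjusted p = 0.00397, and -0.98 without DMEM 2a, which is under the 2-fold limit). With DMEM set b alone it was -0.73, also under that limit, and in 1 fit of all 18 bulk libraries it was -1.17 with an edgeR adjusted p of 0.0974 and not called. The mesenchymal factor *Prrx1* rose with TMM (log2 fold change 1.09 ± 0.28 SE, edgeR adjusted p = 0.00595) but lay at -0.30 with total counts, and at 0.93 without fresh 1b and 0.91 without fresh 2b, under the 2-fold limit. *Thy1*, the marker of the sort, lay at 60.7, 48.9, 3.30 and 2.64 in fresh libraries, at 9.58, 11.8 and 13.5 in DMEM set a and at 83.4, 95.8 and 76.4 in DMEM set b. Within each medium the sets stood apart, in fresh libraries with set a above set b and in DMEM with set b above set a, and the comparison across media was not called (log2 fold change 0.75 ± 0.97 SE, edgeR adjusted p = 0.522, -0.62 with total counts). *Crabp1* and *Twist2*, markers of dermal fibroblasts, followed the same order. *Crabp1* lay at 446.4, 565.01, 45.9 and 50.6 in fresh libraries, at 164.5, 239.5 and 184.8 in set a and at 2201, 2413 and 1998 in set b (log2 fold change 2.12 ± 1.04 SE, edgeR adjusted p = 0.0958, not called), and *Twist2* at 85.6, 59.2, 9.87 and 4.47, at 4.44, 9.04 and 9.85 and at 64.7, 40.3 and 27.7 (log2 fold change -0.61 ± 0.85 SE, edgeR adjusted p = 0.546, not called). The brown fat progenitor factor *Ebf2* took the opposite order, with 5.93, 12.58, 95.1 and 131.2 in fresh libraries, 90.9, 71.4 and 66.4 in DMEM set a and 0.680, 0.619 and 0.680 in DMEM set b (log2 fold change -0.67 ± 1.33 SE, edgeR adjusted p = 0.677, not called).

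Of 35 mesenchymal and dermal identity genes tested, 15 fell and 1 rose, with a median of -1.03 (TMM). *Lef1*, the Wnt effector of the upper dermis, lay at 45.95, 45.7, 1.51 and 2.72 in fresh and at 0.452 to 2.03 in DMEM libraries (log2 fold change -3.94 ± 0.85 SE, edgeR adjusted p = 0.00192). DMEM was thus at the level of fresh set b and far below fresh set a. *Prdm1*, a marker of papillary dermis precursors, had a similar form, at 48.2, 45.4, 2.28 and 0.785 in fresh libraries and at most 0.450 in DMEM (log2 fold change -7.50 ± 1.29 SE, edgeR adjusted p = 0.00041). *Trps1*, a GATA-type repressor, and *Nfatc1*, a calcium-regulated factor, fell by 5.22 and 3.94, and *Nfatc1* was alike in all fresh libraries (27.8, 25.7, 39.4 and 31.7). Of 25 Hox genes tested, 3 rose with TMM and 1 fell, none under both scalings, with a median of 0.35 that turned to -1.07 with total counts. *Hoxb6* and *Hoxb7*, which pattern the trunk, rose with TMM by 2.17 and 1.28, and lay at 0.76 and -0.12 with total counts. Both were low, and *Hoxb6* overlapped between the groups, at 0.502 to 1.23 in fresh and 0.927 to 8.74 in DMEM libraries. *Hoxb7* was at most 3.01 in any library. With DMEM set b alone both were at 0.93 and not called (edgeR adjusted p = 0.107 for *Hoxb6* and 0.0555 for *Hoxb7*). *Hoxc9* (higher) and *Hoxb2* (lower) each lost their call when any of 6 libraries was left out, with values of 1.54 to 1.81 and -1.27 to -1.1. In the Smart-seq2 sums 14 of 15 Hox genes were at least 2-fold higher at E14.5, with *Hoxb6* at 40.2 CPM and 2.55 at E16.5. The part of other cells in these sums was not tested.

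**Figure D4:**
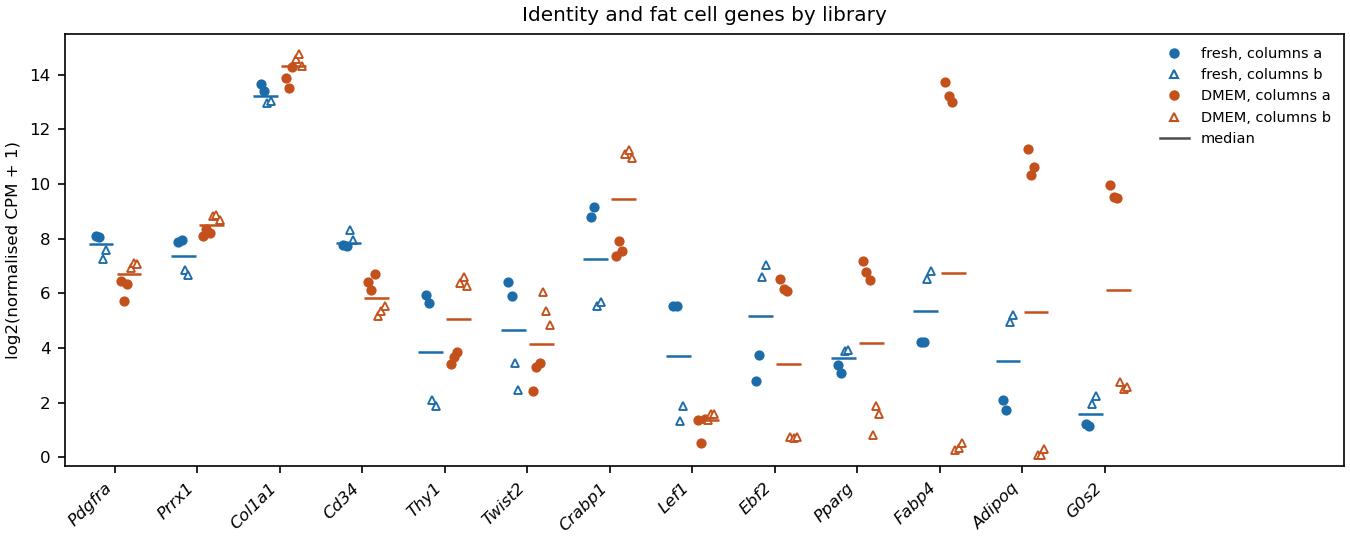
Log2(normalised CPM + 1) of identity and fat cell genes in each library, with fresh in blue, DMEM in orange, set a as circles, set b as triangles and bars at group medians. In DMEM, *Ebf2*, *Pparg*, *Fabp4*, *Adipoq* and *G0s2* are high in set a and low in set b, while *Thy1* and *Crabp1* are high in set b.

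Fat cell genes showed the widest gap between the DMEM sets. Of 33 tested, 15 rose (6 under both scalings) and 1 fell, with a median of 2.31 (TMM). The groups did not overlap with DMEM higher for only 5 of the 33, where 22.3% of all genes did so. Against the 4 fresh libraries, set a alone gave 27 higher and none lower with a median of 3.22, and set b alone gave 5 higher and 18 lower, of 31 tested, with a median of -1.49. *Fabp4*, the fatty acid carrier of adipocytes, lay at 17.6, 17.5, 90.9 and 110.9 in fresh libraries, at 13785, 9594 and 8170.4 in set a and at 0.204, 0.281 and 0.433 in set b, and was not called over the 6 libraries (log2 fold change 6.47 ± 2.79 SE, edgeR adjusted p = 0.0611), although DESeq2 (6.48, adjusted p = 0.0024) and edgeR in 1 fit of all 18 bulk libraries (6.41, adjusted p = 0.0441) called it higher. *Pparg*, the master factor of adipogenesis, lay at 9.51, 7.54, 13.9 and 14.2, at 143.3, 110.6 and 89.7 and at 0.748, 2.64 and 2.04 (log2 fold change 2.36 ± 1.25 SE, edgeR adjusted p = 0.119, not called). *Adipoq*, the hormone adiponectin, lay at 3.34, 2.33, 30.1 and 35.9, at 2463, 1290.4 and 1563 and at 0.0680, 0.0563 and 0.247, not called with edgeR and called higher with DESeq2 (5.64, adjusted p = 0.0082). Fresh libraries lay between the DMEM sets for all 3 of these genes, and *Fabp4* and *Adipoq* were called higher when any single library of DMEM set b was left out (6.72 to 6.74 for *Fabp4* and 5.88 to 5.89 for *Adipoq*), so the pooled fold changes describe neither set.

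*G0s2*, an inhibitor of fat breakdown, was raised in every DMEM library, with 1.36, 1.25, 2.90 and 3.72 in fresh libraries, 988.5, 728.4 and 714.2 in set a and 5.71, 4.67 and 4.95 in set b (log2 fold change 7.46 ± 1.90 SE, edgeR adjusted p = 0.00514). *Scd1*, a fatty acid desaturase, was raised in both sets as well, from 13.2, 18.2, 27.5 and 32.3 to 1180.5, 516.3 and 586.3 and 162.5, 164.7 and 159.6 (log2 fold change 4.34 ± 0.70 SE, edgeR adjusted p = 0.000265). *Agpat2*, an enzyme of triglyceride synthesis, lay at 4.33, 4.52, 3.45 and 4.08, at 530.2, 298.98 and 307.997 and at 8.70, 9.68 and 6.55 (log2 fold change 5.56 ± 1.41 SE, edgeR adjusted p = 0.00495). *Pnpla2*, a triglyceride lipase, was raised in set a only by value (632.9, 398.99 and 391.2, against 9.31, 8.44 and 5.50 in set b and 3.51, 4.49, 13.8 and 10.9 in fresh libraries). *Ucp1*, the uncoupler of brown fat, was the one that fell, from levels that were already near 0, with 0.815, 0.459, 3.51 and 2.41 in fresh libraries and at most 0.753 in DMEM.

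Genes of developmental signalling pathways are read against the 18.8% of all genes called higher and the 26.8% called lower. Of 21 Hedgehog and Notch pathway genes, 11 fell and none rose, with a median of -1.31 (TMM). *Gli1*, the transcriptional readout of Hedgehog signalling, lay at 31.5, 27.2, 7.40 and 5.36 in fresh libraries and between 0 and 0.113 in DMEM, with 4 counts over all 6 libraries (log2 fold change -8.67 ± 0.76 SE, edgeR adjusted p = 3.4e-06). *Ptch1*, the Hedgehog receptor and a second readout, went from 96.2, 89.1, 15.4 and 12.3 to between 1.97 and 4.37 (log2 fold change -4.16 ± 0.57 SE, edgeR adjusted p = 7.85e-05). The Notch target *Heyl* went from 16.6, 23.9, 17.03 and 20.5 to a median of 0.705 (log2 fold change -4.51 ± 0.37 SE, edgeR adjusted p = 2.27e-06), and the ligand *Dll1* fell by 3.89. In the uncultured Smart-seq2 sums *Gli1* lay at 9.92 CPM in E14.5 cells and 14.995 in E16.5 cells, and *Ptch1* at 63.1 and 37.3.

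Of 38 Wnt pathway genes tested, 17 fell and 5 rose, 1 of these under both scalings, with a median of -0.92 (TMM). The secreted inhibitor *Wif1* lay at 287.6, 295.7, 18.2 and 16.3 in fresh libraries, with set a far above set b, and at 0 to 0.900 in DMEM (log2 fold change -8.46 ± 1.02 SE, edgeR adjusted p = 3.35e-05). *Sfrp5*, another secreted inhibitor, fell to a median of 0.0377 from 14.02, 7.93, 0.388 and 0.576 (log2 fold change -6.15 ± 1.16 SE, edgeR adjusted p = 0.000792). The effector *Tcf7* lay at 4.47, 4.65, 0.551 and 0.733 in fresh libraries with 1 count in all of DMEM, a ratio of 264.04 (95% counting interval 47.4 to 10429, exact Poisson, covering counting error only). The ligand *Wnt10b* had no count in DMEM and at most 0.460 in fresh libraries, at least 13.8-fold lower. *Sfrp2*, again a secreted inhibitor, was the one higher under both scalings, from 117.8, 65.4, 154.1 and 135.5 to 1996, 2315 and 3823 in set a and 429.5, 436.2 and 373.6 in set b (log2 fold change 3.72 ± 0.76 SE, edgeR adjusted p = 0.00135). *Wnt16* and *Dkk3* rose with TMM by 1.68 and 1.48. The other two were *Sfrp1*, whose groups overlapped, and *Dkk2*, named after its value was seen, with 1.19 (TMM) and -0.20 (total counts).

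Of 44 Bmp and Tgf-β pathway genes, 19 fell and 7 rose, 1 of these under both scalings, with a median of -0.74 (TMM). The ligand *Bmp7* went from 29.7, 15.8, 14.7 and 10.6 to a median of 0.196 (log2 fold change -6.11 ± 0.49 SE, edgeR adjusted p = 1.92e-06), *Bmp2* from 8.23, 5.41, 16.54 and 12.45 to a median of 1.46 (log2 fold change -2.81 ± 0.36 SE, edgeR adjusted p = 4.69e-05), and *Bmp5* fell by 3.08. *Bmp5* overlapped between the groups, at 1.21 to 21.4 in fresh and 0.185 to 2.34 in DMEM libraries. The antagonist *Nog* fell by 3.35, whereas the antagonist *Grem1* rose from 5.75, 5.08, 10.3 and 9.05 to a median of 45.1 (log2 fold change 2.71 ± 0.52 SE, edgeR adjusted p = 0.000846). *Fstl1*, a secreted binding protein, rose with TMM from 1795, 1813, 1997 and 1736 to between 6027 and 10696 (log2 fold change 2.30 ± 0.20 SE, edgeR adjusted p = 3.68e-06). The latent Tgf-β binding protein gene *Ltbp2* and the receptor-activated *Smad9* rose with TMM by 2.04 and 1.59.

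Of 25 Fgf and Pdgf pathway genes, 11 fell and 4 rose, none under both scalings, with a median of -0.98 (TMM). The feedback inhibitors of Fgf and Ras signalling *Spred1* and *Spred2* fell, *Spred1* from 92.7, 90.4, 80.3 and 62.2 to between 5.19 and 8.24 (log2 fold change -3.66 ± 0.16 SE, edgeR adjusted p = 6.6e-08) and *Spred2* by 2.98. The ligand *Fgf18* fell by 4.36, and *Fgf7* and *Pdgfd* rose with TMM by 2.34 and 2.13. Of 24 Igf and imprinted growth genes, 5 rose (1 under both scalings) and 4 fell, with a median of -0.13 (TMM). The ligand *Igf2* rose with TMM (log2 fold change 1.19 ± 0.40 SE, edgeR adjusted p = 0.022) but lay at -0.22 with total counts, and at 0.94 and 0.98 and not called without fresh 1a or 2a. The receptors *Igf1r* and *Igf2r* fell by 1.70 and 1.5. *Igfbp7*, a secreted binding protein, went from 2.21, 3.15, 7.71 and 4.61 to a median of 37.1 (log2 fold change 3.23 ± 0.45 SE, edgeR adjusted p = 9.23e-05), and the imprinted *Peg10* fell by 2.76. Of 18 retinoid genes, 7 fell and none rose, with a median of -0.61 (TMM). The enzymes of retinoic acid synthesis *Rdh10* and *Aldh1a2* fell by 3.23 and 4.19, as did *Cyp26b1*, which breaks it down, by 3.97. *Aldh1a2* and *Cyp26b1* overlapped between the groups. *Aldh1a2* lay at 0.648, 3.24, 17.1 and 17.6 in fresh and 0.250 to 0.753 in DMEM libraries. *Cyp26b1* lay at 81.8, 68.1, 2.41 and 1.49 in fresh and 0.563 to 6.18 in DMEM libraries. With DMEM set b alone *Cyp26b1* was not called (log2 fold change -3.20, edgeR adjusted p = 0.0667).

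**Figure D5:**
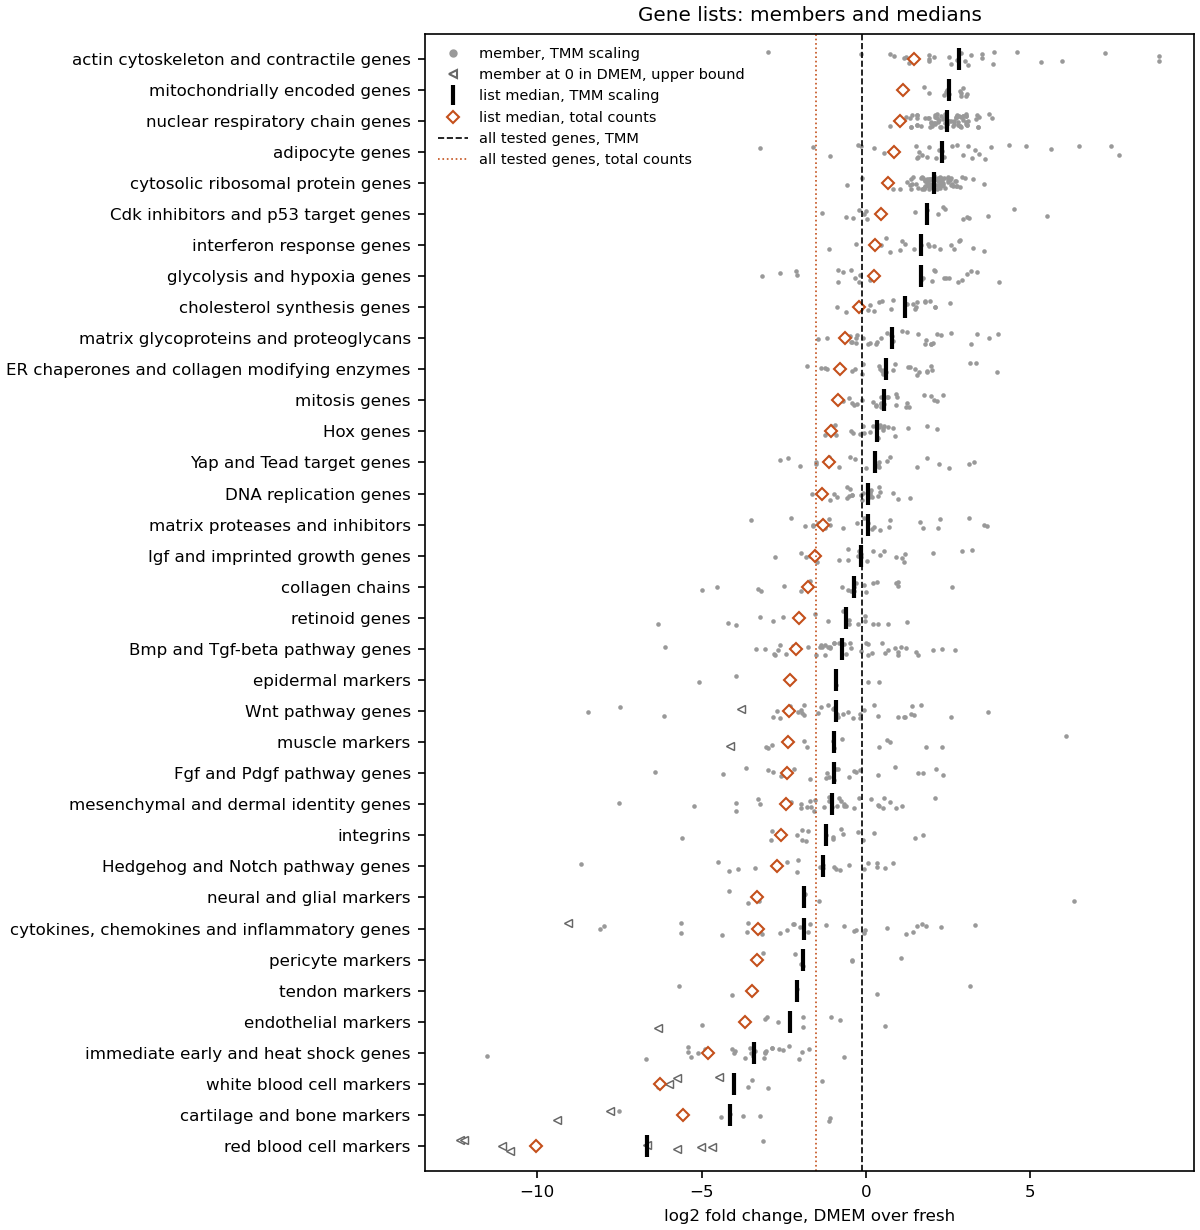
Log2 fold change of DMEM over fresh for each tested member of each gene list with TMM scaling (grey points), the list median with TMM, with such bounds where needed (black bars) and with total counts (open diamonds), and the medians of all tested genes as lines at -0.12 (TMM) and -1.52 (total counts). Members without a DMEM count are drawn as open triangles at the upper bound of the fold change set by a floor of 3 counts. Contractile, mitochondrial, respiratory, adipocyte and ribosomal genes stand at the top and blood, cartilage and immediate early genes at the bottom.

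Markers of blood cells that a sort could carry were lower in DMEM. All 9 red blood cell markers tested fell, and their sum went from 307.9 to 547.4 normalised CPM in fresh to 0.0753 to 0.814 in DMEM libraries. The α-globin gene *Hba-a2* lay at 199.3, 115.3, 170.7 and 130.9 and the β-globin gene *Hbb-bs* at 182.6, 100.02, 166.2 and 120.1 in fresh libraries, with no count in any DMEM library, at least 5210.4-fold and 4810.1-fold lower. The globin genes have near-identical copies (*Hba-a1*, *Hbb-bt*), between which reads may have been split. Of 9 tested, 8 had no DMEM count, and with those at their bound the list median was -6.66. All 8 white blood cell markers fell, with the summed levels given above and a list median of -4.02 when 3 members at 0 were set to their bound. *Tyrobp*, *C1qa* and *C1qb* of macrophages had no count in DMEM and at most 2.42, 1.02 and 1.87 in fresh libraries. *Csf1r*, the macrophage growth factor receptor, went from 5.08, 5.44, 3.39 and 4.32 to a median of 0.470 (log2 fold change -3.47 ± 0.49 SE, edgeR adjusted p = 0.000105).

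Of 10 endothelial markers, 8 fell, with a summed level of 63.2 to 69.7 in fresh and 26.9 to 54.4 in DMEM libraries and a median of -2.30. *Tek*, the angiopoietin receptor, went from 23.4, 25.3, 29.99 and 31.5 to a median of 3.101 (log2 fold change -3.01 ± 0.24 SE, edgeR adjusted p = 1.68e-06), *Cldn5*, of endothelial tight junctions, had no count in DMEM (at least 79.6-fold lower), and *Pecam1* was not called (20.6, 18.3, 18.6 and 18.5 against 18.7 to 43.7). Of 9 cartilage and bone markers, 7 fell, with a median of -4.12 and sums of 190.9 to 308.7 against 25.8 to 58.9. The cartilage collagen gene *Col2a1* lay at 102.6, 83.05, 115.2 and 147.8 in fresh libraries, at 12.3, 10.02 and 11.8 in DMEM set a and at 2.79, 0.338 and 1.24 in set b (log2 fold change -4.12 ± 0.74 SE, edgeR adjusted p = 0.000548). *Acan*, aggrecan, and *Ibsp*, a bone matrix protein, had no count in DMEM, at least 221.7-fold and 672.6-fold lower. Of 7 pericyte markers, 4 fell, with a median of -1.92, among them *Cspg4* (log2 fold change -1.97 ± 0.20 SE, edgeR adjusted p = 8.7e-06). *Rgs5*, a regulator of G protein signalling, fell by 3.12, with fresh 2a apart from the other fresh libraries at 4.87, 60.2, 2.12 and 1.75, and without fresh 2a the log2 fold change was -0.57 and not called. With DMEM set b alone 3 fell and 1 rose, *Rgs4*, another regulator of this family, named after its value was seen. *Acta2*, which pericytes also express, was counted with the contractile genes and not here. Summed levels of the list were 118.8 to 211.1 in fresh and 59.7 to 93.9 in DMEM libraries.

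Of 15 muscle markers, 6 fell and 3 rose, 1 of these under both scalings, with a median of -0.96 and summed levels of 55.1 to 130.9 in fresh and 986.5 to 1869 in DMEM libraries. Most of the DMEM sum was *Acta1*, at 793.0 to 1687, whose share of the actin reads is uncertain. The myogenic factor *Myog* went from 2.32, 5.96, 4.53 and 8.90 to a median of 0.543 (log2 fold change -2.99 ± 0.56 SE, edgeR adjusted p = 0.00071) and *Myf5* had no DMEM count, whereas the 3 that rose were the actins *Acta1* and *Actc1* and the receptor subunit *Chrna1* (1.84 with TMM). Of 7 neural and glial markers tested, 4 fell and 1 rose, with a median of -1.88 and summed levels of 16.1 to 67.9 in fresh and 79.5 to 250.1 in DMEM libraries. The one was *Tubb3*, a β-tubulin of neurons, at 2.80, 1.38, 2.00 and 1.62 in fresh and 76.6 to 244.7 in DMEM libraries (log2 fold change 6.34 ± 0.49 SE, edgeR adjusted p = 1.49e-06), while *Elavl3* and *Dcx*, neuronal RNA-binding and microtubule proteins, were at or under 3.69 in every library and fell by 4.16 and 3.25. *Tubb3* made up most of the summed neural level in DMEM. Reads of *Tubb3* may be shared with other β-tubulin genes. The defining neural markers *Robo3* and *Sox10* were below the filter on low counts. Of 5 tendon markers, 3 fell, 1 of them *Egr1*, and 1 rose, with a median of -2.09 and summed levels of 715.9 to 1279 in fresh and 559.8 to 1327 in DMEM libraries. *Tnmd*, tenomodulin, rose from 18.1, 27.1, 152.8 and 168.7 to between 499.1 and 1259 (log2 fold change 3.18 ± 0.68 SE, edgeR adjusted p = 0.0017), and *Thbs4*, a tendon thrombospondin, fell from 12.04, 30.2, 263.5 and 304.2 to a median of 2.81 (log2 fold change -5.70 ± 1.17 SE, edgeR adjusted p = 0.00135). Of 5 epidermal markers tested, 2 fell, with a median of -0.91 and no library above 2.51 for *Epcam*. Summed levels were 10.02 to 21.9 in fresh and 4.88 to 9.21 in DMEM libraries, and the keratins *Krt5* and *Krt14* were below the filter. The part of these other cells in the remaining results was not tested.

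The remaining genes among the 15 largest changes in each direction belonged to none of these groups. The histone H2A genes *Hist2h2aa1* and *Hist2h2aa2* lay at 1.69, 3.11, 1.92 and 2.15 and 0, 0.721, 0 and 0 in fresh libraries and at medians of 77.2 and 55.95 in DMEM, and since they are near-identical copies their levels as single genes are uncertain. *S100a4*, a calcium-binding protein linked to cell motility, lay at 23.4, 21.3, 2.00 and 2.04 and at 324.5, 423.5 and 317.9 in set a and 1654, 1578 and 1633 in set b (log2 fold change 6.34 ± 1.06 SE, edgeR adjusted p = 0.000347). *Dner*, a transmembrane Notch ligand, went from 2.05, 1.67, 3.75 and 4.06 to between 75.002 and 159.3 (log2 fold change 5.23 ± 0.38 SE, edgeR adjusted p = 9.79e-07). In the Smart-seq2 sums, where most neural markers were also higher at E14.5, *Dner* lay at 205.1 CPM at E14.5 and 18.3 at E16.5. *Itgbl1*, an integrin-like secreted protein, and *Galnt18*, a glycosyltransferase, rose by 5.15 and 5.00, both more in set b (265.1, 261.8 and 283.8 for *Galnt18*) than in set a (54.3, 60.5 and 79.9). Of the decreases, *Itih5*, a hyaluronan-binding matrix protein, went from 426.3, 435.2, 325.3 and 287.1 to between 1.24 and 9.94 (log2 fold change -6.08 ± 0.65 SE, edgeR adjusted p = 1.38e-05). *Gfpt2*, of hexosamine synthesis, went from 163.1, 157.7, 622.5 and 511.997 to a median of 8.67 (log2 fold change -5.34 ± 0.44 SE, edgeR adjusted p = 2.41e-06), *Trib1*, a pseudokinase, from 87.5, 104.2, 148.5 and 192.99 to a median of 3.30 (log2 fold change -5.28 ± 0.46 SE, edgeR adjusted p = 3.39e-06), and *Creb5*, a relative of *Atf3*, from 106.8, 87.996, 115.5 and 90.3 to a median of 2.46 (log2 fold change -5.41 ± 0.23 SE, edgeR adjusted p = 5.66e-08). *Ttr*, transthyretin, a serum carrier protein of liver and yolk sac, differed by set among fresh libraries (7.27, 5.74, 345.97 and 1085) and had 1 count in DMEM, a ratio of 36619 (95% counting interval 6572 to 1446380).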

How the data were processed

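The authors deposited whole-number counts per gene symbol for the bulk libraries, which were prepared with Smart-seq2 from total RNA. The aligner and counter of the bulk reads are not given in the sources used here. For the single cells the authors deposited expected counts, estimated with kallisto 0.44.0 and summed per gene with tximport, which served only as side values for stage and were not tested. Each single cell was kept where it had a *Pdgfra* count above 0, counts were summed per stage and expressed as CPM, and ratios used log2(CPM + 1).

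Genes passing edgeR's filter on low counts (15358) were fitted with edgeR 4.0.16 in R 4.3.3 by the quasi-likelihood test with TMM factors and Benjamini-Hochberg adjustment, with medium as the only term. A term for the Thy1 sort was planned, but the column names do not hold the sign of the sort. A called gene had an adjusted p under 0.05 and at least 2-fold change. Scaling to total counts, DESeq2 1.42.0, other filters, equal depth, a replicate block and leaving out each library were tried as alternatives, and the fit was tested on simulated counts. Group differences in library makeup were compared with exact two-sided permutation tests in scipy 1.17.1. Tables were made with Python 3.11.15, numpy 2.4.6 and pandas 2.3.3, and plots with matplotlib 3.10.9. Totals of 17320736 to 35332908 counts per library set the precision, and intervals and floors cover counting error only. Gene positions and exon lengths came from GENCODE vM21 (GRCm38), and promoters from RefSeq.

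Genes were named by a rule. It took the 15 largest called changes in each direction among genes with a mean of at least 32 CPM and no overlap between the groups. Symbols that were Gm numbers, Rik, pseudogene or mitochondrial names were left out. From each gene list it took up to 4 called members a direction, and for lists of other cells the most abundant. *Pdgfra*, *Thy1*, *Twist2*, *Crabp1*, *Ebf2* and *Pparg* were always given. A gene that the rule took is not reported here. The libraries, lists and members were chosen with earlier results of these data known, and *Col1a1*, *Fabp4* and *Adipoq* were named after their values were seen.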

Additional observations from a re-analysis of the deposited data

Results flagged for a closer look

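A library was set apart where its gap to the nearest of its group exceeded Dixon's 95% value for the range, in groups of 4 fresh or 6 DMEM libraries. For groups from a single normal population this rule flags about 1 in 20, or 18 of those tested here, and 13 were found. Sets a and b often stood apart within a group, and some groups lay near 0. The 18 is therefore not the number due to chance in these groups. Fresh 2a was apart from the other fresh libraries for *Acta2* (96.3 normalised CPM against 25.6 to 36.04), *Rgs5* (60.2 against 1.75 to 4.87), *Eno1* (255.1 against 225.4 to 228.1) and *Hist2h2aa2* (0.721 against 0 in the others). Fresh 2b was apart for *Fosb* (346.4 against 210.04 to 225.4) and *Ifit1* (1.73 against 0.293 to 0.492), and fresh 1a for *Has1* (150.3 against 177.1 to 179.7) and *Pecam1* (20.6 against 18.3 to 18.6). Among DMEM libraries, *Lef1* was lowest in 2a (0.452 against 1.56 to 2.03), *Dll1* highest in 1b (0.612 against at most 0.212) and *Bmp7* highest in 3a (0.637 against 0.0618 to 0.225). The single DMEM counts of *Tcf7* in 1a (0.0626) and of *Ttr* in 2a (0.0753) were also flagged, each against 0 in the other wells. The causes were not tested.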

How the results depend on the processing

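Scaling moved the counts of calls most: with total counts only, 620 genes were higher and 9795 lower, so that 5.95% of calls were higher, against 41.3% with TMM. The TMM factors were 1.76 to 1.81 in fresh and 0.623 to 0.716 in DMEM libraries, and which scaling is nearer to the amounts per cell was not tested. A test against a 2-fold change (edgeR glmTreat) called 4506 genes, 1795 higher and 2711 lower. Without a filter on low counts 5823 of 22920 genes were called lower and 3270 higher. The counts with DESeq2 (2970 higher, 4181 lower), RLE factors (2899 and 4108), all 18 bulk libraries in 1 fit (2634 and 5052) and equal depth (2634 and 3896) were within 1.5 times the main ones, as were those without any single library (2784 to 2958 higher and 3887 to 4230 lower).

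Of the genes with values in the text, 20 changed sign in any alternative. With total counts only the log2 fold changes were *Col1a1* -0.41, *Dkk2* -0.20, *Flna* -0.086, *Hoxb7* -0.12, *Igf2* -0.22, *Mrtfa* -0.65, *Pecam1* -0.83, *Prrx1* -0.30, *Rrm2* -0.058, *Thy1* -0.62, *Vcl* -0.18 and *Zyx* -0.24. With DMEM set a alone they were *Crabp1* -0.47, *Ebf2* 0.38 and *Thy1* -1.28, and with set b alone *Adipoq* -7.09, *C3* -0.90, *Fabp4* -7.53, *Pnpla2* -0.039, *Pparg* -2.58 and *Twist2* 0.16, where both sets were split after seeing the data. Without any single library *Twist2* ranged from -1.12 to 0.085, the latter without fresh 1a, and *Ebf2* from -1.13 to 0.023, the latter without fresh 2b, and neither was called with all libraries.

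Correlations of deviations between same-numbered libraries were -0.0565 to 0.0925 in 8 pairs. The libraries of a fresh set mirror each other in these deviations, so the values are not independent. They cannot show whether same-numbered libraries share a pool or batch. With a replicate block 2746 genes were higher and 3734 lower, 6480 in all, and *C3*, *Dpt*, *Hoxb2*, *Ucp1*, *Igf2* and *Rgs5* lost their calls. The tests by Thy1 sort and of the difference between sorts were not run, since the column names lack the sign of the sort. Low counts limit the genes at or near 0 in DMEM to bounds.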
